A study of Mus musculus with 17 samples.

Results

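Transcript levels of 9 transcription factors of the muscle lineage were examined in the diaphragm, the main breathing muscle: Pax3, Pax7, Myf5, Myf6, Myod1, Myog, Mef2a, Mef2c and Mef2d. They were taken by gene symbol, and all 9 were found among the 47643 gene symbols measured by RNA-seq in 17 male C57BL/6J mice, 4 months old. Control mice (n = 5) carried no tumor and received mock injections of carrier protein in saline. Control + rFibcd1 mice (n = 5) carried no tumor and received rFibcd1, a recombinant C-terminal part of the secreted muscle protein Fibcd1. LLC mice (n = 3) bore tumors from Lewis lung carcinoma cells injected under the skin of both flanks and received mock injections, and LLC + rFibcd1 mice (n = 4) bore the same tumors and received rFibcd1. All injections were given into the peritoneal cavity during the last week. The model is therefore a graft of a single cancer line in young males, and each value is a level in whole diaphragm muscle.

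Satellite cells are the resident stem cells of skeletal muscle. They are defined by Pax7, and in some muscles, the diaphragm among them, many also carry the related factor Pax3. Myf5 and Myod1 commit these cells to the muscle lineage, Myog drives their terminal differentiation, and Myf6 is the family member kept at a high level in mature myofibers. These 4 factors bind the E-box, a short DNA motif, as pairs with E proteins, and the MEF2 proteins act beside them on muscle genes and also work in the nuclei of mature myofibers, where calcium and stress signals regulate them.

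TPM values (transcripts per 1000000) were used, which divide reads by gene length, so levels can be compared between genes. The recovered depth was 50.8 to 54.6 in units of 1000000 reads per mouse. Marker genes of other cell types moved with the groups. The summed level of 10 B cell markers was 2.82 to 114 TPM in Control, 4.21 to 161 in Control + rFibcd1, 265 to 338 in LLC and 21.1 to 332 in LLC + rFibcd1, and all 10 passed the test as higher in LLC than in Control. So did 8 of 8 T cell, 6 of 6 tested neutrophil and 4 of 8 macrophage markers, whose summed levels were 45.3 to 70.7, 51.3 to 112.6 and 989 to 1125 TPM in LLC against 2.92 to 27.9, 5.05 to 17.2 and 310 to 644 TPM in Control. Of all 13305 genes tested, 35.8% were called in this comparison, and 3958 were called higher. The summed level of 8 myofiber markers was 44928 to 51048 TPM in the 10 tumor-free mice, 40203 to 41907 in LLC and 40405 to 47121 in LLC + rFibcd1, so the tissue label was borne out in every mouse. The mitochondrially encoded share of TPM ran from 41.3% to 50.4% and was lowest in LLC replicate 3. In whole muscle, fewer cells of a type and less RNA per cell cannot be told apart.

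Upstream sequences are shown for Myog, a known E-box target, and for Mef2a and Mef2c, whose levels varied together among mice. They are the 250 bases before the RefSeq transcription start on GRCm38.p6, read on the gene's strand, 5′ to 3′, with E-boxes (CANNTG, the same on both strands) in capitals. RefSeq starts were found for 6 of the 9 genes, and Pax3, Myf6 and Myod1 were not matched.
Myog, chr1:134289754-134290003, plus strand: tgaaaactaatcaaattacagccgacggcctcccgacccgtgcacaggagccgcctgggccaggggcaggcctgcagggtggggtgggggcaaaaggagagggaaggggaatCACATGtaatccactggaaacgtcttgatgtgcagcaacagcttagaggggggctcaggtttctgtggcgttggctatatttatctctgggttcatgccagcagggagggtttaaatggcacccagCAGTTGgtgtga
Mef2c, chr13:83503784-83504033, plus strand: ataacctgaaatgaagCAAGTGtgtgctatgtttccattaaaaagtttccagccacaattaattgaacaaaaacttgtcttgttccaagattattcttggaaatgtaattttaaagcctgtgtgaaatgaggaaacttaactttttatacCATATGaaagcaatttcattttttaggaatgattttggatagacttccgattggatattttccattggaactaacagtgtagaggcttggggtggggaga
Mef2a, chr7:67372859-67373108, minus strand: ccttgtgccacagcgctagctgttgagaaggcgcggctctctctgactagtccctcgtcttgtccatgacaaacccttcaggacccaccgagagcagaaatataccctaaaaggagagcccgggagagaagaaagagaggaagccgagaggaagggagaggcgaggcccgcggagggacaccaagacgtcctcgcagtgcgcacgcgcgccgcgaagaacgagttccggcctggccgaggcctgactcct
The Myog window held 2 E-boxes, 132 and 6 bases before the start, and the Mef2c window shown held 2, 228 and 94 bases before it. RefSeq lists 3 starts for Mef2c, and of these the window shown, which is the one at the start of the annotated gene, held the most E-boxes, against 0 and 1 in the other two. No E-box stood in the Mef2a window. Of all 32817 promoter windows of this length, 66.2% held at least 1 E-box.

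The 9 factors covered a wide range of levels. Over the 17 mice, mean levels were 76.1 TPM for Mef2d, 72.4 for Mef2c, 58.1 for Myf6, 16.96 for Mef2a, 12.3 for Myod1, 5.40 for Myog, 2.25 for Pax3, 1.35 for Pax7 and 1.24 for Myf5. The myofiber factor Myf6 thus stood above the other 3 members of its family, and the satellite cell factors were the lowest. Myf6 exceeded Mef2a, Myod1 exceeded Myog and Myog exceeded Pax3 in 17 of 17 mice, and Mef2a exceeded Myod1 in 16. Mef2d was above Mef2c in 12 mice, Mef2c above Myf6 in 15 and Pax3 above Pax7 in 15. Pax7 was above Myf5 in only 8 of 17 mice, so these neighbours were not separated by their spread. The median ratio of Pax3 to Pax7 was 1.23 in Control, 1.54 in Control + rFibcd1, 1.63 in LLC and 2.34 in LLC + rFibcd1, a description for which no test was run.

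**Figure D1:**
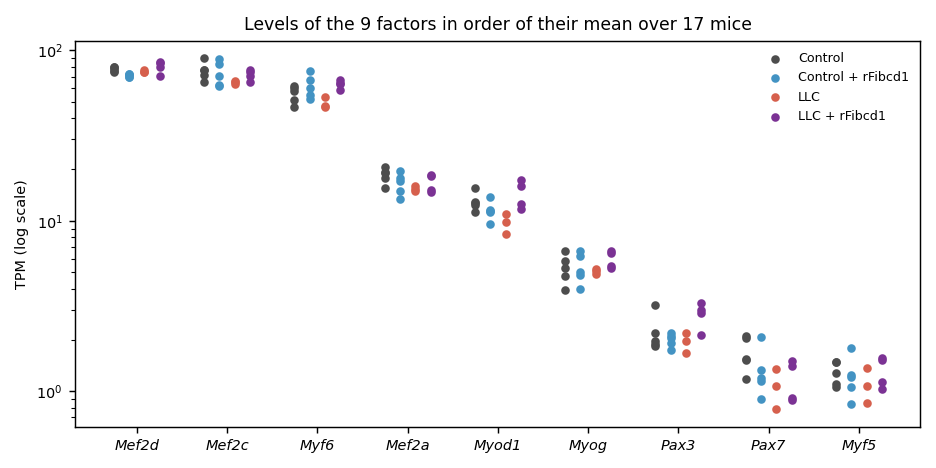
TPM on a log scale for each of the 9 factors, ordered by the mean over 17 mice, with 1 point per mouse colored by group. The factors run from Mef2d (mean 76.1 TPM) to Myf5 (mean 1.24 TPM), and the points of Pax7 and Myf5 overlap.

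The read numbers behind the low values were recovered from the TPM. Pax7 (chr4:139737062-139833528, minus strand, GENCODE vM21 on GRCm38) rested on 111 to 310 recovered reads per mouse, Pax3 (chr1:78101267-78197134, minus strand) on 257 to 522, Myf5 (chr10:107482908-107486134, minus strand) on 42 to 99 and Myog (chr1:134289989-134292548, plus strand) on 141 to 248. At the median, counting alone would give a coefficient of variation of 7.09% for Pax7, 12.7% for Myf5 and 5.44% for Pax3, against observed values of 31.0%, 21.2% and 22.7% over all mice. For these 4 genes and Mef2d the values lay within 0.05 of a whole read in 17 of 17 mice. For Myf6, Myod1, Mef2a and Mef2c they did so in only 1 to 3 mice, and no read numbers are given. Mef2a shares 302 exonic bases with Lysmd4 on the opposite strand and Mef2d shares 531 with the antisense gene 1700113A16Rik, whose levels did not exceed 4.95 and 1.30 TPM. The strand setting of the counting was not stated, so these reads cannot be told apart.

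The comparison of LLC with Control asked whether the tumor changed these factors. Every one of the 9 had a lower fitted level in LLC, but only Myod1, a commitment factor of the lineage, passed the test. In limma on log2(TPM + 1) with Benjamini-Hochberg adjustment over 13305 genes, 1 of 9 factors had an adjusted p under 0.05, where 35.8% of all genes tested did. At an unadjusted p under 0.05 these were 3 of 9 factors (Pax7, Myod1 and Mef2a) and 48.3% of all genes. The median change was -0.17 over the 9 factors and 0.16 over all genes. All 9 stayed lower under median-ratio scaling, quantile normalization and rescaling without mitochondrially encoded genes. With a B cell score in the model 4 of the 9 turned, Pax3 to 0.023, Myf5 to 0.010, Myf6 to 0.0088 and Myog to 0.055, and without Control replicate 4 Myog turned to 0.039.

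Myod1 (chr7:46376474-46379099, plus strand) was at 15.6, 12.4, 11.3, 12.7 and 12.9 TPM in Control replicates 1 to 5 and at 10.9, 8.34 and 9.83 TPM in LLC replicates 1 to 3. Every LLC mouse was below every Control mouse. Groups failed to overlap in this way for 1 of the 9 factors and for 40.2% of all genes. The mean fell from 12.98 ± 1.59 TPM (SD, n = 5) to 9.70 ± 1.29 TPM (SD, n = 3). The log2 change was -0.39 ± 0.13 (SE), a fold of 0.765 with a 95% interval of 0.629 to 0.931 (adjusted p = 0.0360, limma), and the exact permutation test gave a two-sided p of 0.0179, the smallest that 5 against 3 mice allow. This call was lost without LLC replicate 2 (adjusted p = 0.129), LLC replicate 3 (0.102) or Control replicates 1 (0.0726), 4 (0.0563) and 5 (0.0604), and with no filter on low values (0.0527). After adding a score of the B cell markers to the model, the change was -0.27 ± 0.17 (adjusted p = 0.500), and in that limma fit 7 genes were called in all.

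Pax7, the defining factor of satellite cells, was at 1.17, 1.54, 2.05, 2.12 and 1.53 TPM in Control and at 1.07, 1.35 and 0.783 TPM in LLC. The lowest Control mouse lay within the LLC range. The log2 change was -0.37 ± 0.16 (SE; adjusted p = 0.0859, limma), and with quantile normalization it was -0.72 ± 0.22 and passed (adjusted p = 0.0213). With the B cell score in the model it was -0.22 ± 0.20, and with a pseudocount of 0.1 it was -0.61 ± 0.27 (adjusted p = 0.657 and 0.0862, limma). Pax3 (1.66, 2.20 and 1.96 TPM in LLC; 1.84 to 3.21 in Control) and Myf5 (1.08, 1.36 and 0.853 TPM in LLC; 1.05 to 1.49 in Control) changed by -0.12 each and overlapped (adjusted p = 0.475 and 0.480). These are the early factors of the lineage, and their intervals were wide, -0.39 to 0.15 for Pax3 and -0.40 to 0.16 for Myf5. Leaving out 1 mouse moved the change between -0.18 and -0.018 for Pax3 and between -0.21 and -0.037 for Myf5.

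Myog, which switches on in differentiating cells, was at 5.80, 4.72, 5.28, 6.61 and 3.90 TPM in Control and at 4.88, 5.20 and 5.06 TPM in LLC, all within the Control range. Its log2 change was -0.04 ± 0.14 (adjusted p = 0.860, limma). Myf6 (chr10:107492853-107494737, minus strand, 6718 bases from Myf5 on the same strand) was at 46.8, 51.2, 61.6, 58.0 and 59.9 TPM in Control and at 46.5, 53.5 and 47.0 TPM in LLC. The groups overlapped, and its log2 change was -0.17 ± 0.11 (adjusted p = 0.234).

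Among the MEF2 genes, Mef2a (chr7:67231163-67372858, minus strand) was at 19.3, 15.5, 19.1, 20.8 and 17.9 TPM in Control and at 15.0, 15.3 and 15.9 TPM in LLC. Mef2c (chr13:83504034-83667080, plus strand), the member that is also used by endothelial and B cells, was at 77.1, 65.6, 76.8, 89.9 and 71.3 TPM in Control and at 65.0, 66.0 and 63.5 TPM in LLC. In both genes Control replicate 2 fell within the LLC range and the other 4 Control mice were above it. The log2 changes were -0.25 ± 0.11 for Mef2a and -0.22 ± 0.12 for Mef2c (adjusted p = 0.0956 and 0.143, limma). With median-ratio scaling both passed (adjusted p = 0.0135 and 0.0276), as they did with quantile normalization (0.00809 and 0.0309). Mef2d (chr3:88142372-88172086, plus strand), which is broadly expressed, had the smallest spread of the 9 (coefficient of variation 6.13% over all mice), with 74.4 to 80.0 TPM in Control and 76.3, 75.0 and 75.0 in LLC (change -0.04 ± 0.05, adjusted p = 0.542).

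**Figure D2:**
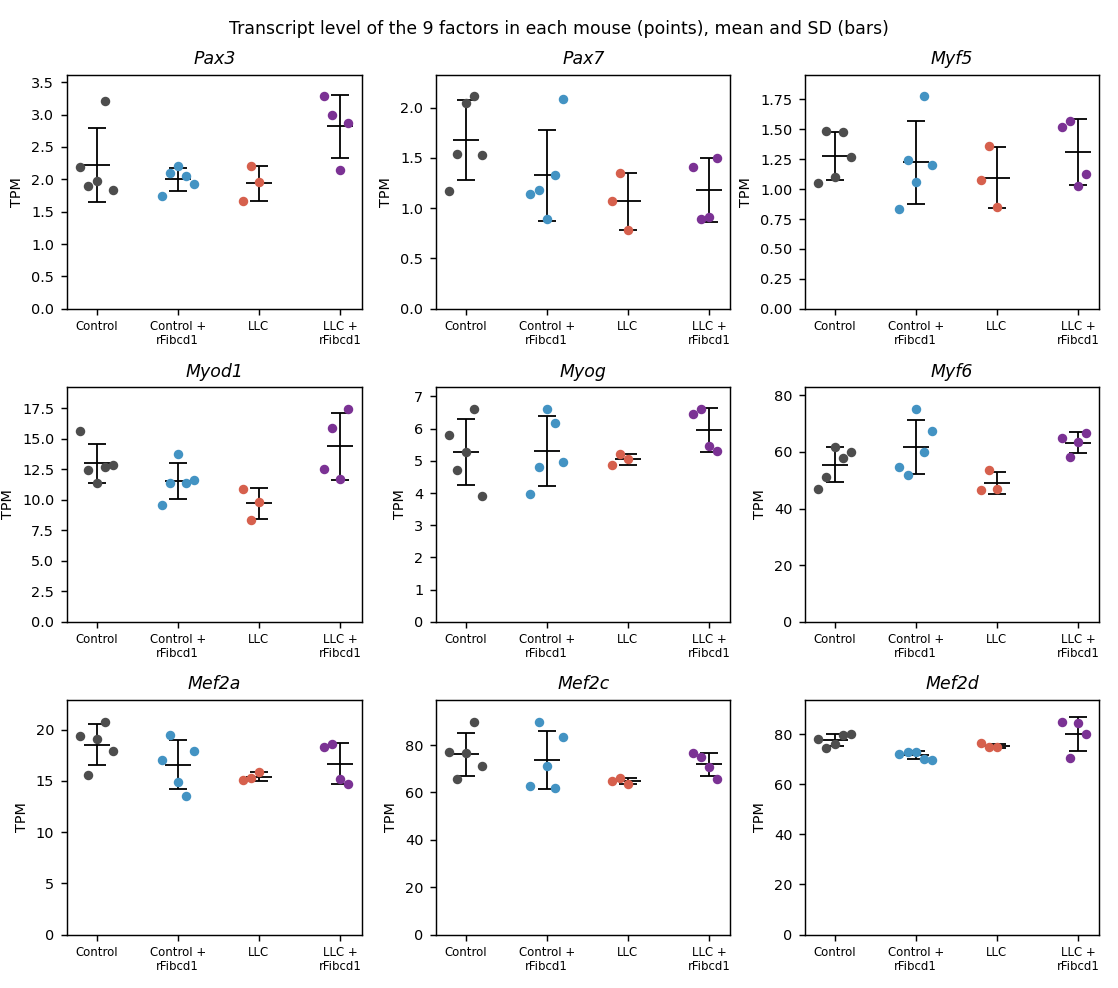
TPM of each factor (vertical axes from 0) by group, with 1 point per mouse and bars for the mean and SD. The Myod1 points of LLC (8.34 to 10.9 TPM) lie below those of Control (11.3 to 15.6) and LLC + rFibcd1 (11.7 to 17.5). Those of the tumor-free Control + rFibcd1 mice (9.60 to 13.7 TPM) overlap with LLC.

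The comparison of LLC + rFibcd1 with LLC asked whether rFibcd1 altered the factors in tumor-bearing mice. All 9 had higher fitted levels with rFibcd1, with a median change of 0.14 against -0.11 over all genes, and the direction held for all 9 under the 3 other scalings. Pax7 turned to -0.030 with the B cell score in the model and also to -0.030 without LLC replicate 3. None passed the adjusted test in limma, where 0.113% of all genes did, and 3 of 9 (Pax3, Myf6 and Myod1) had an unadjusted p under 0.05, as did 22.7% of all genes. The groups did not overlap for 3 of 9 factors (Myf6, Myod1 and Myog) and for 14.6% of all genes. The 2 comparisons share the LLC mice, so a low LLC value enters both. The 8 endothelial markers were also all higher in fitted level with rFibcd1, with 0 called, and their summed level was 261 to 283 TPM in LLC + rFibcd1 against 215 to 251 TPM in LLC. Of 8 myofiber markers 7 were higher. All 10 B cell (median change -1.73), 8 T cell, 8 macrophage, 7 fibroadipogenic, 6 adipocyte and 6 mesothelial markers were lower. Neutrophil (3 of 6 higher), Schwann cell (4 of 6) and smooth muscle (2 of 7) markers were mixed, with 0 called in each list. The part of these markers in the values of the factors was not tested.

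Myod1 was at 12.5, 15.9, 11.7 and 17.5 TPM in LLC + rFibcd1 replicates 1 to 4, above the 3 LLC mice (8.34 to 10.9). The mean was 14.4 ± 2.74 TPM (SD, n = 4) against 9.70 ± 1.29 TPM (SD, n = 3), and the log2 change was 0.51 ± 0.14 (SE), a fold of 1.43 with an interval of 1.16 to 1.76 (unadjusted p = 0.00214, adjusted p = 0.137, limma). The exact permutation p was 0.0571, where 0.0286 is the smallest that 4 against 3 mice allow. LLC + rFibcd1 replicate 3 had the lowest Myod1 of its group and the highest B cell marker sum, 332 TPM. Without it the change was 0.60 ± 0.14 (adjusted p = 0.0628). Over the 17 fits that each left out 1 mouse the change ran from 0.42 to 0.60 and the adjusted p from 0.0628 to 0.546, the highest without LLC replicate 3, and in the model that holds the B cell score it was 0.43 ± 0.15 (adjusted p = 0.615).

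Myf6 was at 64.8, 58.3, 63.6 and 66.7 TPM in LLC + rFibcd1 and at 46.5, 53.5 and 47.0 TPM in LLC. Its log2 change was 0.36 ± 0.12 (adjusted p = 0.175, limma), with an exact permutation p of 0.0286. Every treated mouse was above every LLC mouse, and the difference did not pass the adjustment over all genes. Myog, at 6.47, 6.62, 5.45 and 5.29 TPM against 4.88 to 5.20 in LLC, differed by 0.20 ± 0.15 (adjusted p = 0.386).

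Pax3 was at 3.29, 2.99, 2.14 and 2.86 TPM in LLC + rFibcd1, where 3 of 4 mice were above every LLC mouse and replicate 3 was within their range. Its log2 change was 0.37 ± 0.13 (adjusted p = 0.192, limma). Pax7, at 1.41, 0.892, 0.914 and 1.50 TPM, differed by 0.07 ± 0.17 and overlapped with LLC (adjusted p = 0.792). The paralogs Pax3 and Pax7 therefore gave different values in the same mice, and the difference between the 2 genes was not tested. Myf5 (1.52, 1.57, 1.02 and 1.13 TPM) differed by 0.14 ± 0.14 (adjusted p = 0.500).

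Among the MEF2 genes, Mef2a was at 18.3, 18.6, 15.2 and 14.7 TPM and Mef2c at 76.7, 74.9, 70.5 and 65.6 TPM in LLC + rFibcd1, with log2 changes of 0.10 ± 0.12 and 0.15 ± 0.12 (adjusted p = 0.567 and 0.431, limma). Mef2d was at 85.1, 70.7, 84.6 and 80.0 TPM and changed by 0.08 ± 0.05 (adjusted p = 0.324). All 3 overlapped with LLC.

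**Figure D3:**
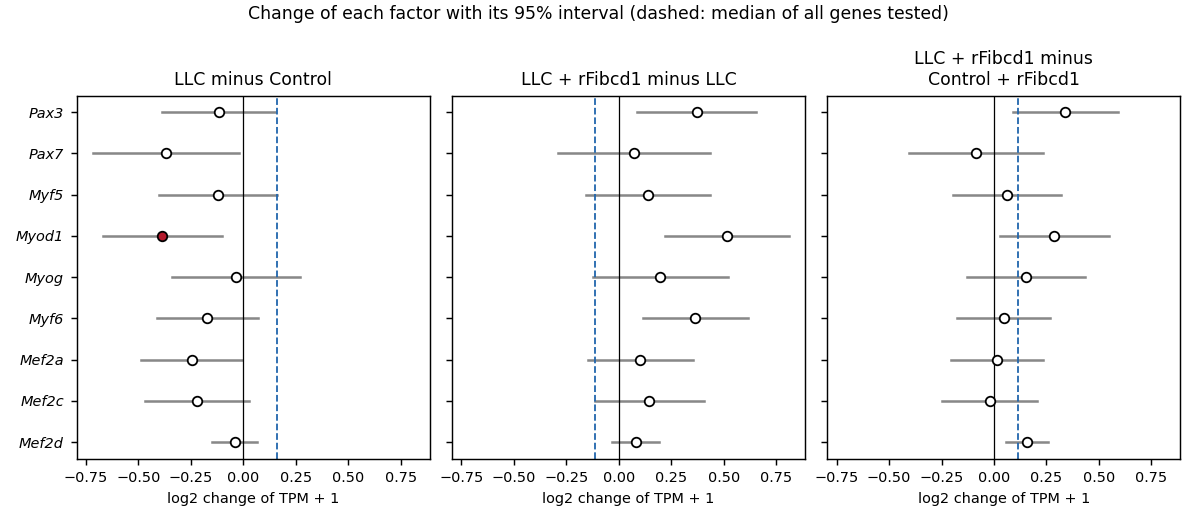
Log2 change of TPM + 1 (horizontal) for each factor with its 95% interval in 3 comparisons; the filled red point passed an adjusted p of 0.05 and the dashed line is the median of all genes tested. All 9 points lie below 0 in LLC minus Control and above 0 in LLC + rFibcd1 minus LLC.

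The interaction of tumor and rFibcd1, the difference between the effects of rFibcd1 in the 2 settings, was positive for all 9 factors. None passed the adjusted test in limma, where 0% of all genes did, and 3 of 9 (Pax3, Myod1 and Mef2d) had an unadjusted p under 0.05, as did 8.58% of all genes. The interaction was 0.67 ± 0.18 (SE) for Myod1 (unadjusted p = 0.00200, adjusted p = 0.182), 0.46 ± 0.17 for Pax3 (adjusted p = 0.404) and 0.20 ± 0.07 for Mef2d (adjusted p = 0.339). It is the change with rFibcd1 in tumor-bearing mice minus that in tumor-free mice, and so uses all 4 groups.

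In tumor-free mice, Control + rFibcd1 against Control gave changes from -0.21 to 0.15. Pax7 was lowest, a fold of 0.864 with a 95% interval of 0.701 to 1.065 (limma). No factor passed the adjusted test, nor did any of the genes tested (0%). Only Mef2d had an unadjusted p under 0.05 (4.39% of all genes). Mef2d was at 77.9, 74.4, 76.2, 79.8 and 80.0 TPM in Control and at 72.1, 73.0, 73.0, 70.0 and 69.8 TPM in Control + rFibcd1. Every treated mouse was below every Control mouse, which held for 1 of 9 factors and 0.812% of all genes. The change was -0.12 ± 0.04 (unadjusted p = 0.0180, adjusted p = 0.927, limma) and the exact permutation p was 0.00794, the smallest that 5 against 5 mice allow. All genes had a median change of -0.06 here, and the Mef2d change was -0.037 ± 0.081 with median-ratio scaling, -0.080 ± 0.058 with quantile normalization and -0.099 ± 0.053 when rescaled without mitochondrially encoded genes.

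LLC + rFibcd1 against Control + rFibcd1 also gave no factor past the adjusted threshold, against 8.06% of all genes, and 3 of 9 at an unadjusted p under 0.05, against 28.5%. Mef2d was closest, at 0.16 ± 0.05 (adjusted p = 0.0510, limma), followed by Pax3 at 0.34 ± 0.12 (adjusted p = 0.0798) and Myod1 at 0.29 ± 0.12 (adjusted p = 0.140). The Mef2d value depended on the scaling: it was 0.015 ± 0.086 with median-ratio scaling, 0.047 ± 0.061 with quantile normalization and 0.088 ± 0.056 when rescaled without mitochondrially encoded genes (adjusted p = 0.933, 0.672 and 0.353, limma). Pax3 and Myod1 were at 0.24 and 0.15 with median-ratio scaling (adjusted p = 0.309 and 0.534). In this comparison 6 of 8 endothelial and 5 of 6 neutrophil markers were called higher. No factor was separated in every mouse, which held for 8.91% of all genes. LLC + rFibcd1 against Control called none of the 9 (3.08% of all genes) and separated none (8.88% of all genes), with changes from -0.30 to 0.25, and only Pax3 had an unadjusted p under 0.05 (19.9% of all genes; 0.25 ± 0.12, adjusted p = 0.245).

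Over all 7 tumor-bearing against all 10 tumor-free mice, no factor passed the adjusted test, while 44.8% of all genes did, and none had an unadjusted p under 0.05 (53.5% of all genes). Changes ran from -0.22 to 0.14, with Pax7 lowest at -0.22 ± 0.11 (adjusted p = 0.109, limma). With quantile normalization 3 factors passed, Pax7 at -0.48 ± 0.15, Mef2a at -0.27 ± 0.07 and Mef2c at -0.23 ± 0.08 (adjusted p = 0.0197, 0.0105 and 0.0362). With median-ratio scaling 2 passed, Mef2a at -0.26 ± 0.07 and Mef2c at -0.27 ± 0.09 (adjusted p = 0.0132 and 0.0274), and Pax7 did not (adjusted p = 0.0535). Pax3 passed without Control replicate 4 and Mef2d without LLC + rFibcd1 replicate 2 (adjusted p = 0.0394 and 0.0149). No factor separated the groups in every mouse (2.26% of all genes). Myod1 changed by -0.01 ± 0.09, with the LLC mice at 8.34 to 10.9 TPM and the LLC + rFibcd1 mice at 11.7 to 17.5 TPM pooled in 1 group.

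Among mice of the same group, 2 pairs of factors varied together. After each group's mean was subtracted, Mef2a and Mef2c gave Pearson's r = 0.812 and Spearman's rho = 0.850 over 17 mice (permutation p = 0.00258 and 0.00124; adjusted over the 36 pairs, 0.0464 and 0.0281). Pax3 and Myog gave r = 0.702 and rho = 0.699 (permutation p = 0.00096 and 0.00156; adjusted, 0.0346 and 0.0281). Without the 2 mice farthest from the median of Mef2a, r was 0.719, and without the 2 farthest in Pax3 it was 0.667. The other 34 pairs had adjusted permutation p-values above 0.05 for r.

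**Figure D4:**
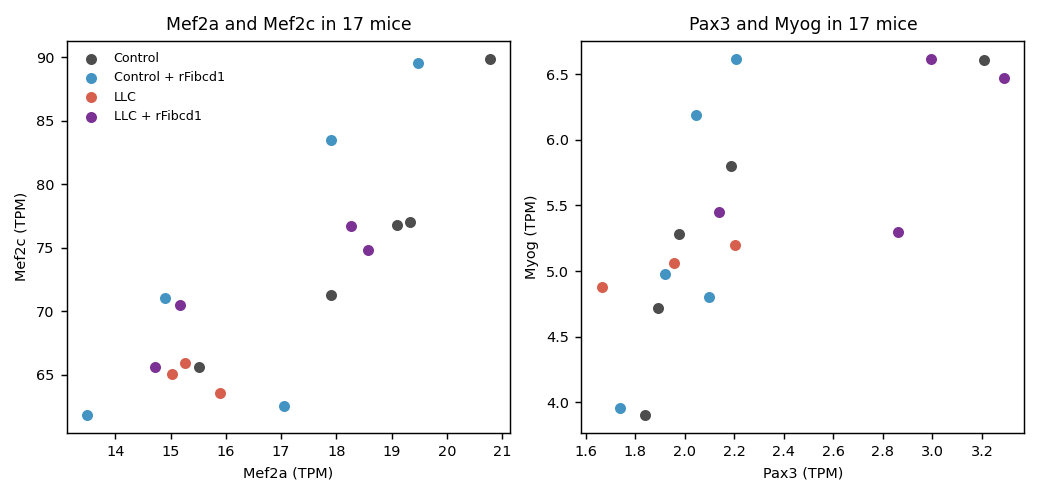
TPM of Mef2c against Mef2a (left) and of Myog against Pax3 (right), with 1 point per mouse colored by group. Mice with higher Mef2a had higher Mef2c (r = 0.812 after group means were subtracted), and mice with higher Pax3 had higher Myog (r = 0.702).

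The genes whose levels followed each factor most closely were ranked by the same group-centered r over 17 mice among all 13305 genes, as a description of likeness with no test. For Mef2a these were Cacna2d1 (r = 0.940), Pja2 (0.940) and Alg10b (0.937), and for Mef2c they were Ppp2r3a (0.923), Carnmt1 (0.922) and Limch1 (0.920). For Myf6 they were Myot, a protein of the myofiber Z-disc (0.912), Mapt (0.885) and Cap2 (0.882). For Pax3 they included Asb4 (0.858) and Me3 (0.794), and for Pax7 they were D630003M21Rik (0.856), Hsbp1l1 (0.851) and Colgalt2 (0.849). The nearest for the remaining factors were Zfp652os for Myog (0.900), Gm5860 for Myf5 (0.847), Ubap2 for Mef2d (0.805) and Sap30l for Myod1 (0.756). The 17 points differ in cell makeup as well, and the maximum over so many genes is high for any gene.

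Other satellite cell markers were mixed in LLC against Control. Of 12 tested among 14 listed, 2 rose and 1 fell, where 35.8% of all genes were called. Vcam1, an adhesion molecule also made by inflamed endothelium, rose by 0.92 ± 0.23 (adjusted p = 0.0128, limma) and Msc, a repressor of the MyoD family, by 0.30 ± 0.10 (0.0338), and the Notch target Heyl fell by 0.32 ± 0.08 (0.0137). The Msc call was kept in 1 of 8 other settings, with changes from -0.030 to 0.43. The list's median change was -0.02, against 0.16 over all genes. In tumor-bearing against tumor-free mice 3 rose and 1 fell, with Vcam1 at 0.52, Msc at 0.39, Heyl at -0.17 and the laminin receptor chain Itga7 at 0.15 (44.8% of all genes called). Itga7 averaged 58.3 ± 2.95 TPM in the 5 Control mice (mean ± SD), 57.5 ± 1.58 TPM in the 3 LLC mice and 69.5 ± 4.48 TPM in the 4 LLC + rFibcd1 mice, so its LLC mean was not above that of Control. Its pooled call was kept in 4 of 7 other settings, and with median-ratio scaling the change was -0.0088 (adjusted p = 0.933). With rFibcd1 in tumor-bearing mice none of the 12 passed, with Itga7 at 0.27 ± 0.06 and Vcam1 at -0.93 ± 0.24 (adjusted p = 0.120 and 0.134).

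Of 16 partners and inhibitors of the MyoD family that were tested, 2 rose in LLC against Control and 1 fell (35.8% of all genes called). Id2, which blocks E-box binding by taking up E proteins, rose by 0.82 ± 0.29 (adjusted p = 0.0377, limma), the E protein Tcf3 rose by 0.63 ± 0.15 (0.0114), and the homeobox factor Six4 fell by 0.30 ± 0.09 (0.0259). The Id2 call was kept in 1 of 8 other settings, with changes from 0.28 to 0.88. Id2 and Tcf3 are also active in lymphocytes, and the B and T cell markers were higher in the same mice. The part of these cells in the Id2 and Tcf3 values was not tested. With the B cell score in the model, Id2 was at 0.28 ± 0.29 and Tcf3 at 0.21 ± 0.08 (adjusted p = 0.714 and 0.290, limma). That fit called 7 genes in all. Of the 18 genes named here as called from the lists in this comparison, 0 stayed called in it and 18 kept their direction. In tumor-bearing against tumor-free mice 5 rose and 3 fell (44.8% of all genes called), with Id2 at 0.53, Tcf3 at 0.47, Eya4 at -0.41 and Vgll2 at 0.35. The calls of Id2 and Vgll2 were each kept in 1 of 7 other settings, with changes of 0.15 to 0.57 and 0.19 to 0.46, and in 8 and 11 of 17 fits that left out a mouse. Vgll2 averaged 71.8 ± 15.6 TPM in the 5 Control mice (mean ± SD), 77.7 ± 1.45 TPM in the 3 LLC mice and 104.2 ± 22.6 TPM in the 4 LLC + rFibcd1 mice. With rFibcd1 in tumor-bearing mice none passed, with Eya1 at 0.27 ± 0.09 and Tcf3 at -0.38 ± 0.16 (adjusted p = 0.182 and 0.204).

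Of 14 MEF2 coregulators, 3 rose and 2 fell in LLC against Control, a share near the 35.8% of all genes called. Mapk7, a kinase that activates MEF2, rose by 0.40 ± 0.12 (adjusted p = 0.0238, limma), the deacetylase Hdac7, which represses it, by 0.37 ± 0.10 (0.0148) and Nfatc1 by 0.35 ± 0.09 (0.0129), and the kinase Camk2a fell by 0.26 ± 0.09 (0.0379). In tumor-bearing against tumor-free mice 5 rose and 2 fell (44.8% of all genes called), with Hdac7 at 0.40, Mapk7 at 0.33, Nfatc1 at 0.31 and Nfatc3 at 0.24. The Nfatc3 call was kept in 2 of 7 other settings, with changes from 0.049 to 0.26. With rFibcd1 in tumor-bearing mice none passed, with Ep300 at -0.29 ± 0.13 and Nfatc3 at -0.21 ± 0.12 (adjusted p = 0.209 and 0.277).

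Of 6 listed fusion and embryonic myosin genes, 4 were in the table (Myh3, Myh8, Cdkn1c and Tmem8c, the older symbol of Mymk) and only Cdkn1c, a cell cycle inhibitor of differentiating myoblasts, passed the filter (-0.27 ± 0.10 in LLC against Control, adjusted p = 0.0523, limma). Cdkn1c averaged 15.9 ± 1.97 TPM in Control (SD, n = 5) and 12.96 ± 0.983 TPM in LLC (SD, n = 3). The embryonic myosin Myh3 stayed at or under 0.704 TPM and the perinatal myosin Myh8 at or under 0.596 TPM in every mouse. By group, Myh3 ran from 0.0330 to 0.0591 TPM in Control and from 0.0342 to 0.112 in Control + rFibcd1. It was at 0.0860 to 0.704 TPM in LLC and 0.0961 to 0.220 in LLC + rFibcd1. Myh8 was at 0.105 to 0.167 TPM in Control and 0.150 to 0.596 in LLC, which overlapped. Neither myosin passed the filter, so these differences were not tested.

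Among 11 synaptic and atrophy genes tested, which respond to nerve supply or wasting, 2 rose and 3 fell in LLC against Control (35.8% of all genes called). Dach2 fell by 0.54 ± 0.16 (adjusted p = 0.0189, limma), Musk, the receptor kinase of the neuromuscular junction, by 0.45 ± 0.15 (0.0338) and Gadd45a by 0.34 ± 0.12 (0.0339), and Runx1 rose by 0.36 ± 0.11 (0.0223). In tumor-bearing against tumor-free mice 4 rose and 3 fell (44.8% of all genes called), the ubiquitin ligases Trim63 and Fbxo32 at 0.43 and 0.34, Dach2 at -0.37 and Musk at -0.35. The Trim63 call was kept in 1 of 7 other settings (changes 0.27 to 0.62) and in 9 of 17 fits that left out a mouse, and the Fbxo32 call in 2 of 7 (0.18 to 0.50) and in 14 of 17. For both ligases the LLC mean was not above that of Control. Trim63 averaged 99.1 ± 18.1 TPM in the 5 Control mice (mean ± SD), 92.1 ± 15.2 TPM in the 3 LLC mice and 157.6 ± 43.6 TPM in the 4 LLC + rFibcd1 mice, and Fbxo32 averaged 83.4 ± 10.6, 81.2 ± 15.0 and 123.1 ± 34.4 TPM in the same order. With rFibcd1 in tumor-bearing mice none passed, with Fbxo32 at 0.57 ± 0.18 and Trim63 at 0.74 ± 0.25 (adjusted p = 0.175 and 0.182).

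Among structural and metabolic muscle genes, the mature targets of these factors, those called in the 2 tumor comparisons given here were all lower. By fitted level alone, 1 of 15 was higher in LLC than in Control. When all mice with tumors were set against all without, 4 of 15 were higher. The list as a whole was not tested. Of 15 tested, 8 fell and 0 rose in LLC against Control, where 35.8% of all genes were called and 801 of 13305 were called lower, with Ppargc1a, a coactivator of mitochondrial genes, at -1.34 ± 0.40 (adjusted p = 0.0205, limma), the fast myosin Myh1 at -0.64 ± 0.13 (0.00930), myoglobin (Mb) at -0.30 ± 0.06 (0.00996) and Tnni2 at -0.29 ± 0.06 (0.00942). In tumor-bearing against tumor-free mice 9 fell and 0 rose (44.8% of all genes called), with Myh1 at -0.50 and Ckm, Tnnt3 and Tnni2 at -0.22, -0.22 and -0.21. With rFibcd1 in tumor-bearing mice 14 of 15 had higher fitted levels and none passed, with Mb at 0.27 ± 0.07 and Des at 0.27 ± 0.07 (adjusted p = 0.120 and 0.134). Without LLC replicate 3, 0 of the 18 called genes named here from the LLC against Control comparison kept an adjusted p under 0.05, and all 18 kept their direction. Over all genes the count fell from 4759 to 24.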

How the data were processed

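Diaphragm RNA from 17 mice was analyzed. The authors trimmed paired reads, mapped them to GRCm38 (mm10) and counted reads per gene with CLC Genomics Workbench. Values were deposited as TPM, which the authors obtained by dividing reads by gene length and scaling each sample to a common sum; the annotation release and strand setting were not given in the sources used here. The labels and the study's methods name different library kits and sequencers. Groups and replicate numbers came from sample titles, and 0 columns were left without a sample.

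Genes reaching 1 TPM in 3 or more mice were tested (13305 of 47643; all 9 factors passed). log2(TPM + 1) was fitted with limma 3.58.1 (R 4.3.3) in a single model of 4 groups with 13 residual degrees of freedom and a mean-variance trend, with two-sided tests in 7 contrasts, Benjamini-Hochberg adjustment over all genes and a threshold of 0.05. The pseudocount of 1 understates changes of low genes. limma was used in place of the study's rank test. The procedure was tested on simulated data. Exact permutation tests were run per factor and pair correlations were permuted 100000 times within groups (numpy 2.4.6). The p-values set group differences and correlations against the variation between these mice.

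Reads were estimated from steps between low TPM values and GENCODE vM21 exon lengths: 94.6% of symbols matched, and 80.2% to 83.3% of low values lay within 0.02 of a whole read (4% if random). The counting coefficients of variation cover counting error only, and the 95% intervals of changes come from the spread between mice in limma.

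The factors and gene lists were chosen with earlier results of these data known. All factors were named. From each list, up to 4 genes with the largest change among those past the threshold were named per comparison, or the 2 with the smallest p where none passed, and up to 3 most alike genes per factor; 1 of the latter is not reported here. Alternatives were a pseudocount of 0.1, no filter, 3 scalings, fits of only the groups compared, a replicate block, a B cell score and leaving out each mouse.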

Additional observations from a re-analysis of the deposited data

How the results depend on the processing

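Counts are of factors with an adjusted p under 0.05 (limma), and the cause of each shift was not tested unless stated. In LLC against Control, 1 factor was called, against 0 with no filter on low values, 3 with median-ratio scaling, 2 when rescaled without mitochondrially encoded genes, 4 with quantile normalization (Pax7, Myod1, Mef2a and Mef2c), 0 with a B cell score in the model and 0 to 2 when a mouse was left out (0 without Control replicates 1, 4 and 5 or LLC replicates 2 and 3). For tumor-bearing against tumor-free mice, 0 became 2 with median-ratio scaling, 3 with quantile normalization and 0 to 1 when a mouse was left out. For LLC + rFibcd1 against Control + rFibcd1, 0 became 0 to 1 when a mouse was left out: Pax3 without Control replicate 4, and Mef2d without Control + rFibcd1 replicate 1 or LLC + rFibcd1 replicate 2. In the other 4 contrasts the count stayed at 0 in every fit. From Control to LLC, all genes had a median change of 0.16 as deposited, -0.01 with median-ratio scaling, 0.07 without mitochondrially encoded genes and -0.10 with quantile normalization.

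Directions reversed in a few fits. With the B cell score, LLC against Control became 0.023 for Pax3, 0.010 for Myf5, 0.0088 for Myf6 and 0.055 for Myog, and LLC + rFibcd1 against LLC became -0.030 for Pax7. Leaving out mice gave Myog -0.12 to 0.039 (LLC against Control) and Pax7 -0.030 to 0.17 (LLC + rFibcd1 against LLC). Msc became -0.030 in LLC against Control with quantile normalization, and Itga7 -0.0088 in tumor-bearing against tumor-free mice with median-ratio scaling. Of the called list genes, those named in the text were followed. The 18 named from LLC against Control fell to 0 called with the B cell score, 0 with the replicate block, 11 with quantile normalization, 12 with median-ratio scaling, 14 with no filter, 15 in a fit of the groups compared only and 16 without mitochondrially encoded genes, and to 9 to 18 when a mouse other than LLC replicate 3 was left out. The 20 named from tumor-bearing against tumor-free mice fell to 6 with the B cell score, 10 with quantile normalization, 14 each with median-ratio scaling, without mitochondrially encoded genes and with the replicate block, 17 with no filter and 16 to 20 when a mouse was left out.

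With the replicate block, LLC against Control called 0 factors (Myod1 at an adjusted p of 0.126) and 5 of all genes. The replicate numbers do not pair the mice: 4 of 22 same-numbered pairs had a correlation over 0.1 (range -0.459 to 0.485), and the best match had the same number in 6 of 44 comparisons. Of the factors with recovered reads, Myf5 had the fewest, 42 to 99 per mouse.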
